A study of Mus musculus with 6 samples.

Results

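Genes of the DNA replication machinery and its supply were followed in splenic T cells of mice treated with rapamycin or with phosphate-buffered saline (PBS). A list of 37 genes was chosen by name, and all 37 had a probe set that named them alone, out of 19938 genes measured. Each gene was represented by the probe set with the highest mean over the 6 arrays. Most of these genes encode parts of the replication machinery itself, while cyclins E, Uhrf1 and the chromatin assembly factors act beside it.

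All 6 mice were B6D2F1/J hybrids that had been lethally irradiated and rebuilt with marrow from B6 mice, a parental strain, after T cells had been removed from the graft. The mTOR kinase inhibitor rapamycin was given into the peritoneum of 3 mice at 1.5 mg/kg on alternate days up to day 10, and 3 mice received PBS on the same schedule. Spleen cells positive for CD3 were sorted by flow cytometry on day 10, and each mouse gave 1 whole-transcript array. Some grafts in the protocol also contained spleen cells of B6 mice, but which of these 6 mice had them is not labelled, nor is the donor or host origin of the sorted cells. Values are log2 expression after robust multi-array averaging (RMA), differences are rapamycin minus PBS, and 3 arrays per group limit the precision.

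Before S phase, the origin recognition complex, Cdc6 and Cdt1 load the ring-shaped MCM2-7 helicase onto DNA. Cyclin E with its kinase, Cdc45, the GINS complex and Mcm10 then help to turn the loaded ring into a moving helicase, and polymerases, the PCNA clamp and its loader copy the strands. In dividing T cells, transcription of many of these genes is driven by E2F factors once the RB protein has been phosphorylated. Rapamycin is known to slow entry of activated T cells into S phase, and the comparison asks whether these transcripts differed in T cells of treated recipients.

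Promoters of 3 of these genes are shown first, for the E2F sites that 13 of the genes held. RefSeq promoter windows, from 250 bases before to 50 bases after a start site on build GRCm38.p6, were found for 31 of the 37 genes. The E2F site was searched as TTTCCCGC, TTTGGCGC, TTTCGCGC or TTTGCCGC on both strands, with overlapping matches counted separately. In the windows that follow, capitals mark these sites. Mcm6 (chr1:128359656-128359955, reverse strand) is shown for having the most sites in a window, 3, of which 2 overlap. Mcm5 (chr8:75109259-75109558, forward strand) is shown for an overlapping pair, and Pole2 (chr12:69228141-69228440, reverse strand) for a single site in a gene whose groups did not overlap below.
Mcm6: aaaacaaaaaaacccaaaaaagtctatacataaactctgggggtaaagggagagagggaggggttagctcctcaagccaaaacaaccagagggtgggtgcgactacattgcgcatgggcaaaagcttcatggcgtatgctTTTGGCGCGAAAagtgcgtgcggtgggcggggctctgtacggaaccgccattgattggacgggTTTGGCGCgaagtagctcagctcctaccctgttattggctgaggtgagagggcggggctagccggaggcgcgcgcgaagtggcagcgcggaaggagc
Mcm5: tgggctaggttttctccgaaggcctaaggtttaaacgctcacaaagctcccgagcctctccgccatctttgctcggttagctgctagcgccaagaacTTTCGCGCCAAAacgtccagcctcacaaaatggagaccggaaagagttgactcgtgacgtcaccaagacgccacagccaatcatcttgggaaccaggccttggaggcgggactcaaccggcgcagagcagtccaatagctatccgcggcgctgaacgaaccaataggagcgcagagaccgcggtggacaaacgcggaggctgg
Pole2: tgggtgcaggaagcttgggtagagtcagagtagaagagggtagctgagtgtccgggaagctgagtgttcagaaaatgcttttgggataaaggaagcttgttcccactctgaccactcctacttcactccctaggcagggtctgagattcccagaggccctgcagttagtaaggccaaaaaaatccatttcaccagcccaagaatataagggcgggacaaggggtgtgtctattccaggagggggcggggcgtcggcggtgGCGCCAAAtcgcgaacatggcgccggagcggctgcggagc

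An E2F site was present in 13 of the 31 replication genes, or 41.9%, against 3.48% of the 15614 measured genes with a window and 2.26% of all 32851 windows. The genes with a site were Orc1, Cdc6, Cdt1, Mcm3, Mcm5, Mcm6, Mcm7, Pola1, Pole2, Pold1, Rfc3, Lig1 and Uhrf1. Of their 19 sites, 11 began within 100 bases before the start site or after it. The CHR element of mitosis genes, searched as TTTGAA or TTCGAA on both strands, was in 16.1% of the replication genes and in 19.0% of measured genes. In a list of mitosis genes with 24 members in the promoter table, the order was the other way round, with the CHR element in 79.2% and the E2F site in 4.17%. The CCAAT box was in 58.1% of replication genes, 83.3% of mitosis genes and 41.7% of measured genes. Base composition of the windows was close, with a median GC content of 58.0% for replication genes and 57.3% for genes on the array. These matches describe letters in a window and are not binding data.

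**Figure D1:**
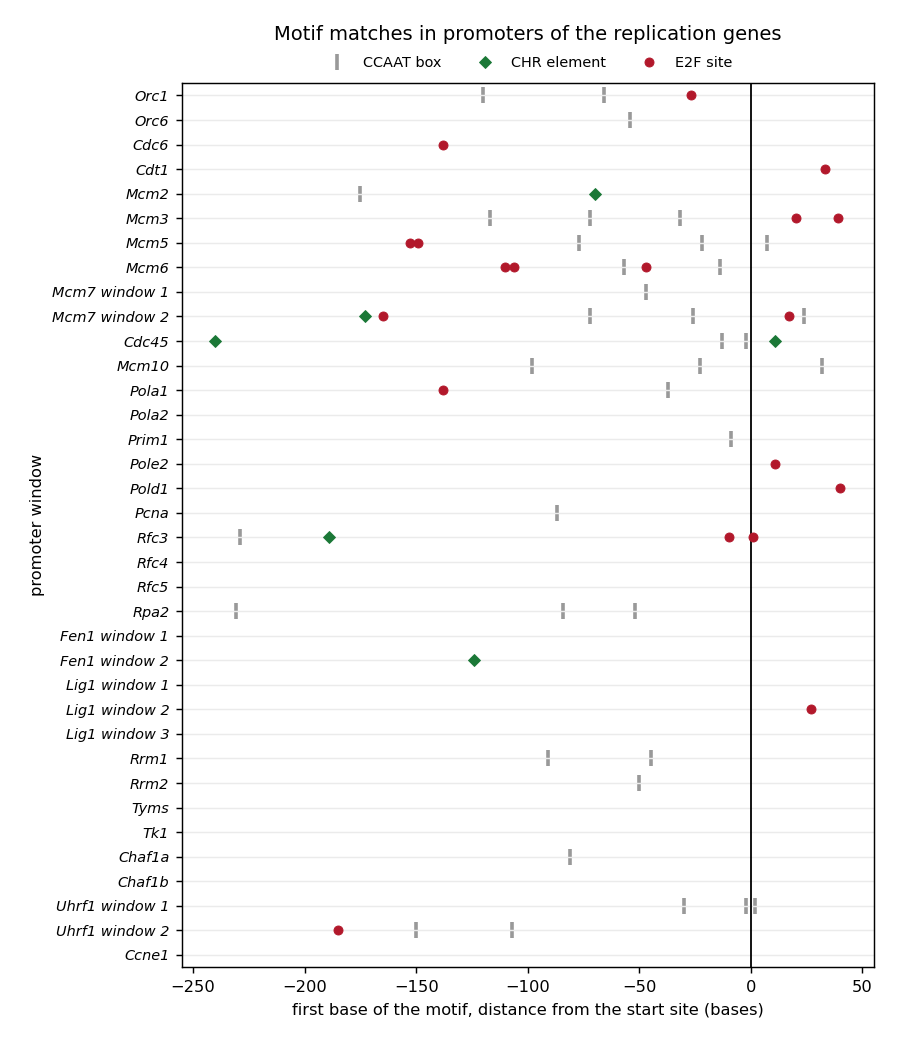
First base of each E2F site (circles), CHR element (diamonds) and CCAAT box (grey bars) in the promoter windows of 31 replication genes, by distance in bases from the start site (vertical line at 0), on either strand. Genes with several annotated start sites have several windows, and 13 of the 31 genes hold an E2F site.

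The transcripts of the replication genes lay at nearly the same level in rapamycin and PBS mice. None of the 37 was called in limma's moderated test at an adjusted p under 0.05 in either direction, where 0.00502% of all genes were, and 0 of 37 had an unadjusted p under 0.05, where 4.67% of all genes did. Differences ran between -0.21 and 0.068 log2, and 33 of 37 were smaller than 0.1 in size, or 89.2%, against 67.1% of all genes. The median difference was -0.042 over the replication genes and -0.013 over all genes. Of the 37, 23 had a negative difference, or 62.2%, against 55.3% of all genes. The median turned to 0.0054 without rapamycin replicate 3, with 18 of 37 negative, and was -0.0127 without PBS replicate 2 and -0.0050 without PBS replicate 3.

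Limma's fit puts a bound on the size of each difference, with each gene's variance moderated towards a value fitted over all genes. Intervals from each gene's own spread alone were not computed. For Chaf1b that spread, an SD within groups of 0.24, was far above the median of 0.0855 over the 37 genes, so its interval rests on the moderation. The 95% interval of the difference, taken gene by gene, lay within 1.5-fold either way for all 37 genes, against 95.5% of all genes. The widest interval, that of Chaf1b, reached a 1.48-fold lower level with rapamycin, and the highest upper limit, that of Pola1, was a 1.25-fold higher level. Chaf1b passed the 1.5-fold limit when any one of rapamycin replicates 2 and 3 or PBS replicates 1 and 2 was left out, and 36 of 37 were then inside. RMA compresses differences, so the bounds hold on the scale of these array values.

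**Figure D2:**
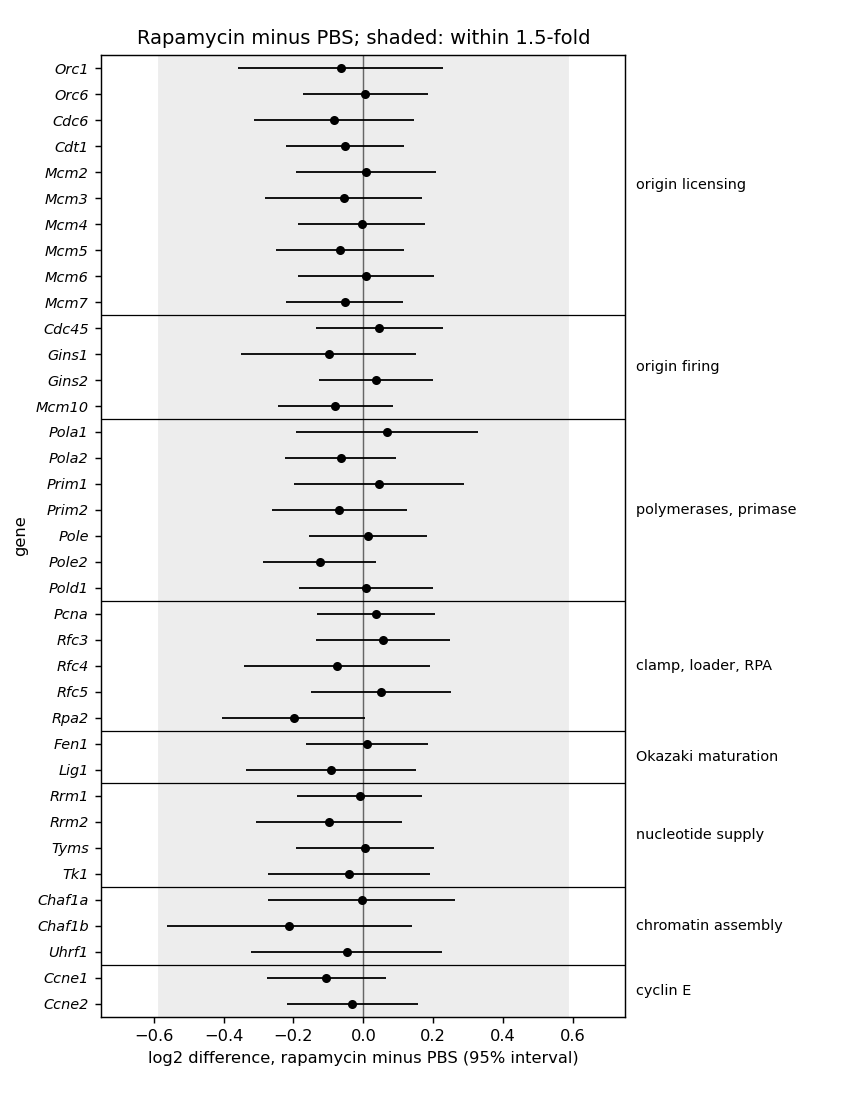
Log2 difference, rapamycin minus PBS, of the 37 replication genes (points) with the 95% interval of limma's fit on 3 against 3 arrays (lines), ordered by role. The shaded band is 1.5-fold either way, and every interval lies inside it.

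Origin licensing genes lay close to 0 throughout. Of 10 genes, 7 had negative differences, and all 10 lay between -0.084 and 0.0082. Orc1 and Orc6 are subunits of the origin recognition complex, with differences of -0.065 (SE 0.13) and 0.0054 (SE 0.08). Cdc6, the loading ATPase, differed by -0.084 (SE 0.10), and Cdt1, its partner that is degraded once S phase begins, by -0.052 (SE 0.07). All 4 intervals included 0.

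The 6 subunits of the MCM2-7 ring differed by at most 0.068 in size. Mcm5, the licensing gene with the smallest p, measured 10.19, 10.15 and 10.14 in rapamycin mice, against 10.12, 10.27 and 10.30 in PBS mice. The rapamycin values lay inside the PBS range. Its difference was -0.068 (SE 0.08, 95% interval -0.25 to 0.12, adjusted p = 0.9998 in limma). Mcm2 averaged 10.33 ± 0.08 with rapamycin and 10.32 ± 0.11 with PBS, and Mcm6 10.78 ± 0.05 with rapamycin and 10.77 ± 0.12 with PBS (SD, n = 3 each). The other subunits differed by -0.057 (Mcm3), -0.0049 (Mcm4) and -0.054 (Mcm7).

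The ring's subunits varied together between PBS mice. PBS replicate 1 lay below the median of the other five mice in all 6 subunits, and PBS replicate 3 lay above it in all 6. The mean over the 6 genes was 10.37, 10.41 and 10.38 in rapamycin mice, and 10.30, 10.45 and 10.49 in PBS mice. The SD between mice was thus 0.022 with rapamycin and 0.10 with PBS, and the difference of the 2 spreads was not tested. PBS replicate 1 was the lowest of the 6 mice and PBS replicate 3 the highest. Over all 37 replication genes PBS replicate 1 was lowest for 14 genes, or 37.8%, against 16.2% of all genes, and PBS replicate 3 was highest for 14, or 37.8%, against 14.7% of all genes. These 2 mice were singled out after their values were seen.

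**Figure D3:**
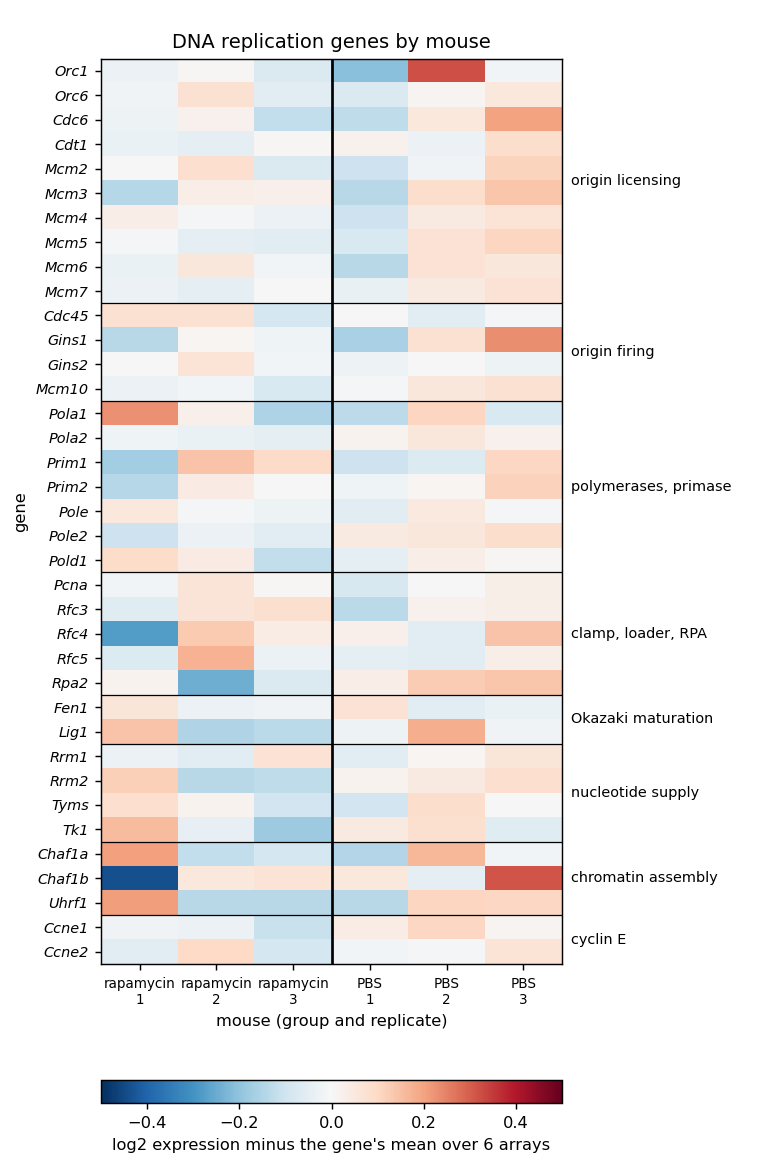
Log2 expression of each replication gene (rows, by role) in each mouse (columns, rapamycin left of the vertical line and PBS right of it), as the difference from the gene's mean over the 6 arrays. Blue fills most of the origin licensing rows in PBS replicate 1 and red in PBS replicate 3, while the rapamycin and PBS columns do not separate.

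Origin firing genes split evenly by sign, with 2 of 4 negative. Mcm10, which helps to activate the helicase, measured 8.58, 8.60 and 8.53 in rapamycin mice, against 8.60, 8.67 and 8.69 in PBS mice. The groups did not overlap, but the closest values of the 2 groups both round to 8.60. The difference was -0.080 (SE 0.07, 95% interval -0.25 to 0.086, adjusted p = 0.9998 in limma). Cdc45, a subunit of the active helicase, differed by 0.045 (SE 0.08), and the GINS subunits Gins1 and Gins2 by -0.099 (SE 0.11) and 0.036 (SE 0.07).

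Groups that do not overlap were found for 5 of the 37 genes, or 13.5%, all lower with rapamycin, against 6.28% of all genes in that direction and 9.42% in either. Apart in the other direction were 0 of the 37 and 3.14% of all genes. The 5 were Mcm10, Pola2, Pole2, Rpa2 and Ccne1, and none passed the test. Pole2, an accessory subunit of the leading-strand polymerase epsilon, measured 8.72, 8.79 and 8.77 in rapamycin mice, against 8.87, 8.88 and 8.91 in PBS mice. Its difference was -0.13 (SE 0.07, 95% interval -0.29 to 0.037, adjusted p = 0.9998 in limma). Pola2, the accessory subunit of polymerase alpha, measured 9.83, 9.82 and 9.80 with rapamycin, against 9.87, 9.90 and 9.87 with PBS. Pola2 had the narrowest spread of these 5 genes, with an SD within groups of 0.016. Its difference was -0.065 (SE 0.07, adjusted p = 0.9998 in limma). The SE is larger than that SD because limma moderates each gene's variance towards a value fitted over all genes.

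Other polymerase and primase genes lay on both sides of 0. Pola1, the catalytic subunit of polymerase alpha, measured 8.99, 8.78 and 8.60 in rapamycin mice, against 8.63, 8.86 and 8.68 in PBS mice. Rapamycin mice held both the highest and the lowest value, and the difference, 0.068 (SE 0.11, adjusted p = 0.9998 in limma), was the highest of the 37 genes. It was -0.030 without rapamycin replicate 1 and 0.16 without rapamycin replicate 3. The catalytic subunits Pole and Pold1 of polymerases epsilon and delta differed by 0.014 and 0.0081. The primase subunits, which lay the RNA primers, had differences of 0.045 (Prim1) and -0.069 (Prim2). Polymerases and primase together had 3 of 7 negative and a median of 0.0081.

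Rpa2, a subunit of the protein that coats single-stranded DNA, had the smallest p of the 37 genes. It measured 9.58, 9.32 and 9.49 in rapamycin mice, against 9.59, 9.69 and 9.70 in PBS mice. The groups did not overlap, although rapamycin replicate 1 lay close below PBS replicate 1. The difference was -0.20 (SE 0.09, 95% interval -0.41 to 0.0060), with an unadjusted p of 0.0556 and an adjusted p of 0.9998 in limma. Leaving out single mice moved the difference both ways. It was -0.13 without rapamycin replicate 2, the lowest mouse, and -0.26 without rapamycin replicate 1 (adjusted p = 0.587 in limma).

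The sliding clamp and its loader lay on both sides of 0. Pcna, the clamp, averaged 11.95 ± 0.04 with rapamycin and 11.91 ± 0.06 with PBS (SD, n = 3 each), a difference of 0.036 (SE 0.07). A pair of probe sets names Pcna, with differences of 0.036 and 0.035 and nearly equal levels in every mouse. Rfc3, Rfc4 and Rfc5 are subunits of the loader that opens the clamp. Rfc3 measured 8.60, 8.72 and 8.74 with rapamycin, against 8.52, 8.68 and 8.69 with PBS, a difference of 0.057 (SE 0.08, adjusted p = 0.9998 in limma). Rfc5 measured 9.73, 9.97 and 9.77 with rapamycin, against 9.75, 9.74 and 9.83 with PBS, a difference of 0.050 (SE 0.09, adjusted p = 0.9998 in limma). For both subunits the groups overlapped, and the difference of Rfc5 was -0.024 without rapamycin replicate 2. Rfc4 differed by -0.076 (SE 0.12).

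Lagging-strand genes and nucleotide supply genes were also close. Lig1, the ligase that seals Okazaki fragments, measured 9.85, 9.55 and 9.57 in rapamycin mice, against 9.68, 9.89 and 9.69 in PBS mice. Its difference was -0.093 (SE 0.11, adjusted p = 0.9998 in limma), with overlapping groups. Fen1, the flap nuclease that trims the fragments, differed by 0.011 (SE 0.08). Rrm2, the small subunit of ribonucleotide reductase, measured 10.89, 10.64 and 10.65 with rapamycin, against 10.79, 10.82 and 10.86 with PBS. Rapamycin replicate 1 lay above all PBS mice and the other two rapamycin mice below them. The difference was -0.098 (SE 0.09, adjusted p = 0.9998 in limma), and -0.18 without rapamycin replicate 1 (adjusted p = 0.642). The large subunit gene Rrm1 differed by -0.011, thymidylate synthase Tyms by 0.0046 and thymidine kinase Tk1 by -0.042, with -0.093 for a second probe set of Tk1.

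Chromatin genes varied more between mice than the other roles, with a median SD within groups of 0.17. Chaf1b, a subunit of the histone chaperone CAF-1 that rebuilds nucleosomes behind the fork, measured 8.63, 9.12 and 9.14 in rapamycin mice, against 9.12, 9.02 and 9.39 in PBS mice. Rapamycin replicate 1 lay far below the other mice. The difference, -0.21 (SE 0.15, 95% interval -0.56 to 0.14, adjusted p = 0.9998 in limma), was the lowest of the 37 genes and became -0.045 without that mouse. Its partner subunit Chaf1a measured 8.42, 8.09 and 8.13 with rapamycin, against 8.07, 8.38 and 8.20 with PBS. Rapamycin replicate 1 was the highest mouse for Chaf1a and the lowest for Chaf1b. Uhrf1, which brings the maintenance methyltransferase to newly copied DNA, measured 10.10, 9.75 and 9.75 with rapamycin, against 9.75, 10.00 and 9.99 with PBS. Of the 6 mice 3 lay high and 3 low, with mice of both groups on each side. The small differences of Chaf1a (-0.0041) and Uhrf1 (-0.048) changed sign when single mice were left out, among them rapamycin replicate 2 for both.

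Rapamycin replicate 1 departed from the median of the other five mice by 0.2 log2 or more in 7 of the 37 genes, or 18.9%, against 26.7% of all genes, a limit chosen after the values were seen. Uhrf1 (0.35), Pola1 (0.31), Chaf1a (0.29) and Tk1 (0.20) lay above, and Chaf1b (-0.49), Rfc4 (-0.32) and Prim1 (-0.27) below. Every other mouse departed that far in 2 to 4 genes. Its array also received the lowest weight, 0.471, where the other five had 0.865 to 1.45. Over the 37 genes the median SD within groups was 0.0855, against 0.117 over all genes, and 8 genes, or 21.6%, had a difference larger than that SD, against 27.3% of all genes.

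Cyclin E genes drive the step from G1 into S phase. Ccne1 measured 9.66, 9.65 and 9.57 in rapamycin mice, against 9.72, 9.79 and 9.70 in PBS mice. No value overlapped, and the difference was -0.11 (SE 0.07, 95% interval -0.28 to 0.064, adjusted p = 0.9998 in limma). Ccne2, which encodes the second E-type cyclin, differed by -0.031 (SE 0.08).

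Genes with and without an E2F site had overlapping ranges of differences. The 13 genes with a site had a median of -0.054 and ran between -0.13 and 0.068. The 18 genes with a window and no site had a median of -0.0075 and ran between -0.21 and 0.050. The split depends on the site searched. With the sites shortened by their first T, 21 of the 31 genes held a match, among them Chaf1b (-0.21) and Rpa2 (-0.20), the lowest of the 18. Both sets had 0 genes called, and the difference between them was not tested.

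Related genes outside the list were read from 5 further lists, in which 0 members were called. Of 43 other replication genes 23 were negative, with a median of -0.0043, and 0 had an unadjusted p under 0.05. Dna2, a nuclease of Okazaki fragments, had a difference of 0.15 (SE 0.08) and Asf1b, a histone chaperone, of -0.14 (SE 0.08). Both had an adjusted p of 0.9998 in limma and groups that did not overlap. Such groups made up 4.65% of this list, against 9.42% of all genes. Of 11 other nucleotide supply genes 6 were negative, with Dck, a deoxynucleoside kinase, at -0.16 and Cmpk1 at 0.16. Of 14 fork checkpoint genes 4 were negative (median 0.041), with the checkpoint kinase Chek1 at 0.19 (SE 0.12) and Hus1 at 0.081.

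Genes of the E2F and RB circuit showed larger single differences than the replication genes. The median size of a difference in this list was 0.073, against 0.052 in the replication genes and 0.067 in all genes. Groups did not overlap for 4 genes of the list, or 15.4%, all lower with rapamycin, against 6.28% of all genes in that direction and 9.42% in either. Of 26 measured, 11 were negative, with a median of 0.0033. An unadjusted p under 0.05 in limma was found for 2, or 7.69%, against 4.67% of all genes. E2f2, an activating E2F, measured 9.43, 8.95 and 9.08 in rapamycin mice, against 9.58, 9.52 and 9.45 in PBS mice. Every rapamycin mouse lay lower, with a difference of -0.36 (SE 0.12, adjusted p = 0.982 in limma). Tfdp2, a partner that E2F factors need to bind DNA, measured 7.65, 7.92 and 7.91 with rapamycin, against 7.25, 7.67 and 7.44 with PBS. Its groups overlapped slightly, and the difference was 0.37 (SE 0.12, adjusted p = 0.982 in limma).

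All 29 measured mitosis genes had negative differences, against 55.3% of all genes. As in every list here, the genes were read from the same 6 mice, so the signs of its members are not independent observations. The list mean differed by -0.095, with an SD between mice of 0.089 with rapamycin and 0.092 with PBS, and the groups overlapped. The differences ran between -0.23 and -0.011 with a median of -0.085, and 0 were called. Differences smaller than 0.1 in size made up 65.5% of the list, against 89.2% of replication genes and 67.1% of all genes. Differences larger than the SD within groups made up 48.3%, against 21.6% of replication genes and 27.3% of all genes. Groups did not overlap for 20.7%, all lower with rapamycin, against 6.28% of all genes in that direction and 9.42% in either. Plk1, a kinase of mitotic entry and spindle assembly, measured 11.03, 10.90 and 10.98 in rapamycin mice, against 11.30, 11.25 and 11.04 in PBS mice. Its groups did not overlap, with a difference of -0.23 (SE 0.09, adjusted p = 0.9998 in limma), and Hmmr, a spindle protein, differed by -0.18 (SE 0.08), likewise without overlap. Mitosis and replication genes were measured on the same arrays, and the difference between the lists was not tested. Their order over mice also differed. The mean of the mitosis list was 9.79, 9.63 and 9.65 with rapamycin and 9.86, 9.81 and 9.68 with PBS, so PBS replicate 1 was the highest mouse for mitosis genes and the lowest for replication genes, whose means were 9.44, 9.45 and 9.40 with rapamycin and 9.40, 9.49 and 9.51 with PBS.

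**Figure D4:**
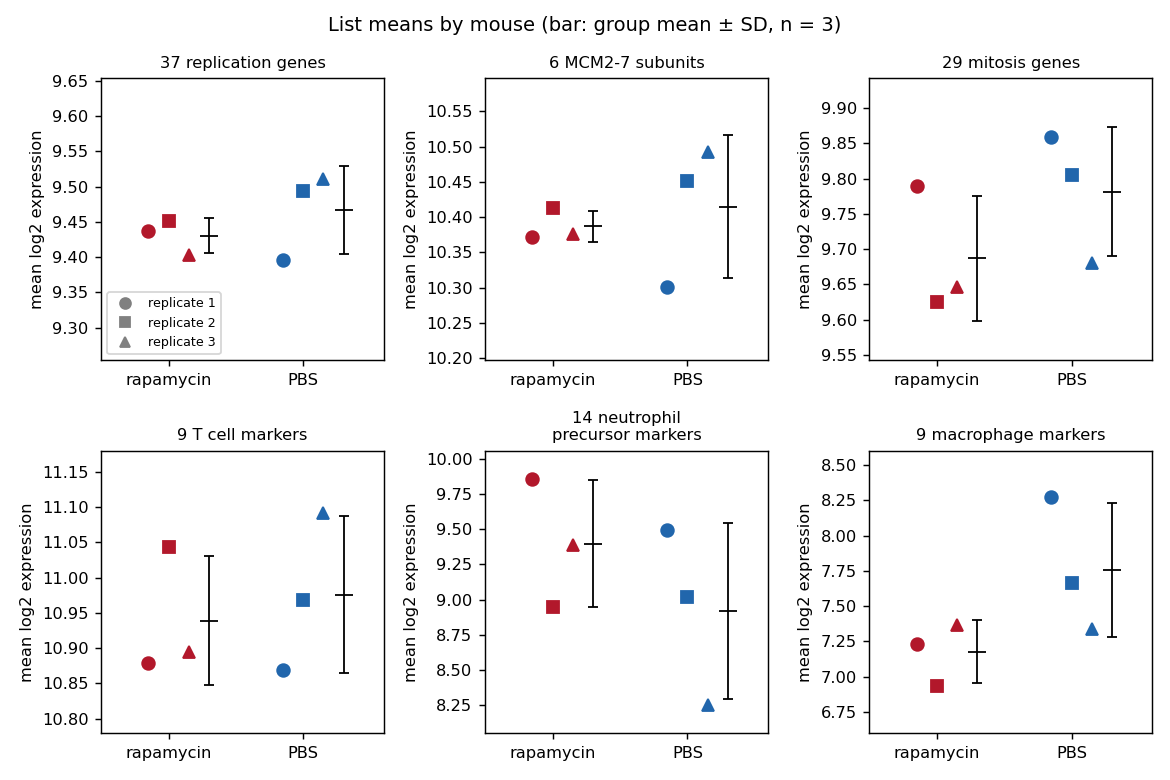
Mean log2 expression over the genes of 6 lists in each mouse (symbols by replicate), with the group mean ± SD over 3 mice beside them, rapamycin left and PBS right. The y axes of the neutrophil and macrophage panels span 2.0 log2 and the other panels 0.4. The MCM2-7 and T cell marker panels have PBS replicate 1 lowest and PBS replicate 3 highest, and the groups overlap in all 6 panels.

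Markers of T cells and of other spleen cells were read from every sorted sample. In bulk samples, fewer cells of a type and less RNA per cell cannot be told apart. The 9 measured T cell markers had list means of 10.88, 11.04 and 10.89 in rapamycin mice and 10.87, 10.97 and 11.09 in PBS mice, with 7 of 9 negative. PBS replicate 1 was lowest and PBS replicate 3 highest, as for the MCM2-7 subunits. Cd5, a surface receptor that dampens T cell receptor signals, differed by -0.19 (SE 0.08) with groups that did not overlap, and the adaptor Lat by -0.077 (SE 0.09).

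Macrophage markers were negative in 8 of 9, with list means of 6.93 to 7.37 with rapamycin and 7.34 to 8.27 with PBS, highest in PBS replicate 1. Spic, a transcription factor of red pulp macrophages, measured 5.77, 5.84 and 5.50 in rapamycin mice, against 7.51, 6.70 and 6.93 in PBS mice. All 3 rapamycin mice lay well below the PBS mice. The difference was -1.34 (SE 0.19), with an unadjusted p of 9.35e-05 and an adjusted p of 0.408 in limma. C1qa, a chain of complement C1q, differed by -0.56 (SE 0.22) with overlapping groups.

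Neutrophil precursor markers were positive in 14 of 14, with list means of 8.95 to 9.85 with rapamycin and 8.26 to 9.49 with PBS. Chil3, a chitinase-like protein, measured 12.17, 12.30 and 13.08 in rapamycin mice, against 12.06, 12.12 and 11.52 in PBS mice. Its groups did not overlap, and the difference was 0.62 (SE 0.25, adjusted p = 0.9998 in limma). Elane, neutrophil elastase, differed by 0.61 (SE 0.30) with overlapping groups.

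B cell markers were negative in 5 of 10 (list means 5.47 to 5.53 with rapamycin and 5.48 to 5.62 with PBS). Cd79b, a signalling chain of the B cell receptor, measured 6.84, 6.89 and 6.80 in rapamycin mice, against 7.56, 7.16 and 7.44 in PBS mice. Every rapamycin mouse lay lower, with a difference of -0.54 (SE 0.11), an unadjusted p of 0.000913 and an adjusted p of 0.747 in limma, while Blk, a B cell kinase, differed by 0.060 (SE 0.07). Erythroid markers were positive in 7 of 9 (6.20 to 6.51 with rapamycin and 6.12 to 6.25 with PBS), with Epb42 at 0.31 (SE 0.14) and the anion exchanger Slc4a1 at 0.45 (SE 0.25). Progenitor markers were negative in 3 of 6 (5.46 to 5.64 with rapamycin and 5.50 to 5.70 with PBS), with Cd34 at -0.30 (SE 0.12) and the receptor Flt3 at -0.23 (SE 0.12). The list means of all 6 cell types overlapped between the groups, and no marker was called. Single genes did not overlap for Cd5, Spic, Chil3 and Cd79b. These were 11.1% of T cell, 11.1% of macrophage, 7.14% of neutrophil precursor and 10.0% of B cell markers, against 9.42% of all genes. Erythroid and progenitor markers had 0. Array medians over all probe sets were 6.03 to 6.17, above every list mean of the B cell and progenitor markers. Cd34, Flt3, Blk and Epb42 also averaged below these medians in both groups, so their differences were read at low signal. The part of other cells in the replication values was not tested.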

How the data were processed

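RNA of CD3-sorted splenic T cells was hybridised to 6 arrays, 3 rapamycin and 3 PBS mice grouped by sample title. The deposited values are log2 expression from RMA in Affymetrix Expression Console, per the submitters' processing notes. RMA subtracts background and equalises the arrays' distributions of probe signals, so a shift shared by most genes would be removed or reduced. The deposited values were not fully equal, with array medians over all probe sets of 6.03 to 6.17. Centring each array changed the share of negative differences from 55.3% to 50.8% of all genes. Software versions: not given in the sources used here.

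Values were deposited for 35556 probe sets. The platform's probe table listed 23410, of which 21789 named exactly 1 symbol and 1621 several, and 12146 were not listed. For all 37 genes the symbol and gene identifier matched RefSeq GRCm38.p6. Of several probe sets of a gene, the one with the highest mean was used, which left 19938 genes.

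Differences were tested with limma 3.58.1 in R 4.3.3 (lmFit, eBayes, group as the only term), two-sided, with Benjamini-Hochberg adjustment over 19938 genes, a call at an adjusted p under 0.05 and intervals at the 95% level. The fit was tested on simulated data. P values set each difference against the spread between mice, which the labels call biological replicates. In limma, each gene's variance is moderated towards a value fitted over all genes. All 37 genes are given, with values per mouse for the gene with the smallest p in each role and the 3 largest differences each way, and 2 genes by p of each other list. Pola2, Chaf1a and Uhrf1 were given per mouse after their values were seen. Members and lists were chosen with earlier results of these data known. Promoter windows came from RefSeq, and figures were drawn with matplotlib 3.10.9 in Python 3.11.15.

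Alternatives were the mean of all probe sets of a gene, leaving out the lowest 50% of genes, centring each array, array weights, a trend and robust prior, the replicate number as a block, leaving out each mouse, and a shorter E2F core.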

Additional observations from a re-analysis of the deposited data

How the results depend on the processing

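The count of called replication genes stayed at 0 of 37 under each of 12 alternatives, and so did the count in the 11 other lists, whose alternatives were added after seeing the data. The lowest adjusted p of a replication gene was 0.587, for Rpa2 without rapamycin replicate 1. Rpa2 had an unadjusted p under 0.05 under 4 alternatives and Rrm2 under 1. Leaving out 1 mouse moved the median difference between -0.0596 and 0.0054, the count of negative differences between 18 and 29, and the count of intervals inside 1.5-fold between 36 and 37. The other alternatives gave medians of -0.0479 to -0.0219 and 37 intervals inside. Leaving out 1 mouse turned the sign of 3 to 10 of the 37 differences, array weights turned 6 and centring each array 2. With an E2F core of 7 bases, the site without its first T, 21 of 31 replication genes held a match, in place of 13, or 67.7% against 14.7% of measured genes, since the shorter core matches more windows. The labels state no pairing of mice by replicate number. Deviations from group means correlated over genes at 0.0861, -0.192 and 0.195 for same-numbered mice, and between -0.438 and 0.365 for differently numbered mice. Deviations from a mean of 3 mice offset one another, so these values cannot decide whether mice were paired. With the replicate block 0 of 37 genes were called, 37 intervals lay inside 1.5-fold, and 0 genes of the whole array were called in place of 1. Over all genes 7 were called without rapamycin replicate 1. With 3 arrays per group, the widest 95% interval among the 37 genes extended 0.35 log2 to either side, which limits what these arrays can show.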
